A study of Rattus norvegicus with 55 samples.

Results

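The 7 genes described here, Pla2g4a, Pla2g2a, Ptgs2, Ptgds, Ptger3, Hpgd and Alox15, release arachidonic acid, turn it into prostaglandins, sense or degrade these, or oxidise it along the lipoxygenase branch. Every probe set annotated to 1 of the 7 genes was taken, which gave 11 of the 8799 probe sets on the array. The data are deposited intensities of total kidney RNA from 55 rat samples on 1-colour Affymetrix arrays, all titled as kidney of the SHR, the usual abbreviation of the spontaneously hypertensive rat, and all described as Wistar-derived. The descriptions name 13 arrays immature, 14 young and 14 mature, and 14 arrays carry no stage word and were treated as another group. The labels give no age, sex or treatment and do not tell whether each array stands for its own animal, so a p-value here covers only the spread among arrays, technical spread included. The arrays were also divided by the intensity of X56596_at, a probe set of the class II histocompatibility gene RT1-Bb. It lay between 1411.5 and 2381.2 on 12 arrays, 3 in each stage group, and between 80.1 and 263.0 on the other 43, so no array lay near the dividing value of 600.

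Prostaglandins begin with a phospholipase that frees arachidonic acid from membrane lipids. Pla2g4a encodes the cytosolic, calcium-responsive enzyme and Pla2g2a a secreted one. Ptgs2 encodes the inducible cyclooxygenase, which in the kidney is best known from the macula densa and from interstitial cells of the medulla, and mice without it form abnormal kidneys after birth. Ptgds is the lipocalin-type synthase of prostaglandin D, Ptger3 a receptor for prostaglandin E that in the thick ascending limb and collecting duct opposes vasopressin, and Hpgd the dehydrogenase that starts the inactivation of prostaglandins. Alox15 is a lipoxygenase that adds oxygen to arachidonic and linoleic acid and is known from leucocytes and other cells.

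RefSeq promoter windows of assembly GRCr8, 250 bases before to 50 bases after each gene's start, were at hand for 6 of the 7 genes. The 4 shown belong to genes described first in the stage comparison below, Ptgs2, Hpgd and Pla2g4a, which were lower in mature kidney, and Pla2g2a, which had higher values there. Capitals mark matches, on either strand, to the TATA box TATAAA, the CCAAT box CCAAT, the Sp1 motif GGGCGG, the cyclic AMP response motif TGACG, the E-box CACGTG, the AP-1 motif TGANTCA and the C/EBP motif TTNNGCAAT. The windows are chr13:64713813-64714112 (plus strand) for Ptgs2, chr16:39034782-39035081 (minus strand) for Hpgd, chr13:64572303-64572602 (minus strand) for Pla2g4a and chr5:156359475-156359774 (plus strand) for Pla2g2a.
Ptgs2: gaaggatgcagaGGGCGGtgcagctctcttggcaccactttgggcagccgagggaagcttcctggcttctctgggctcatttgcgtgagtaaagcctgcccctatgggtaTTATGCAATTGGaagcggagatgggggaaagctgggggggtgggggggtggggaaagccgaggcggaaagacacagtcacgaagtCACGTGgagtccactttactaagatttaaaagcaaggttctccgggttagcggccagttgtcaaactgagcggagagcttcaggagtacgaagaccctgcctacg
Hpgd: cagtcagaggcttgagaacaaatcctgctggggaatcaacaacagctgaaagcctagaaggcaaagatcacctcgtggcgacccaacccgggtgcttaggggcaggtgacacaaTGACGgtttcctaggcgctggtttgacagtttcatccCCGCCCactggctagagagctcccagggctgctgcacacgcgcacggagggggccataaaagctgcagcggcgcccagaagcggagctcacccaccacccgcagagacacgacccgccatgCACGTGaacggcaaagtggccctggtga
Pla2g4a: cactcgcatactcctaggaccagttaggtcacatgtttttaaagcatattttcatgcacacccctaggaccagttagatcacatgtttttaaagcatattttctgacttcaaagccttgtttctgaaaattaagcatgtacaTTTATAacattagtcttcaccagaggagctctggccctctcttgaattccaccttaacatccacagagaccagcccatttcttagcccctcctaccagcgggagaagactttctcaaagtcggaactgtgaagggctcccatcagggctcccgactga
Pla2g2a: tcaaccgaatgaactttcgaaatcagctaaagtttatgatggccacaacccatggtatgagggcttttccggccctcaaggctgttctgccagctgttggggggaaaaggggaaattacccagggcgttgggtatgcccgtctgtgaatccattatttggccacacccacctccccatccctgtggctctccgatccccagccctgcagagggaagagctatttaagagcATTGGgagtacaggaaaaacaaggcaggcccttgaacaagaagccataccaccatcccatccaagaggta

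The Ptgs2 window held the C/EBP motif at -140 from the start site, overlapped by a CCAAT box on the other strand, an E-box at -55 and the Sp1 motif at -238. The Hpgd window held TGACG at -136, the Sp1 motif at -99 and an E-box after the start site. The Pla2g2a window held only a CCAAT box at -20, on the minus strand, and the Pla2g4a window only TATAAA at -108, on the strand opposite to the gene. Of the 33469 promoter windows of this length, 2.33% held the C/EBP motif, 6.42% the E-box, 33.1% the Sp1 motif, 37.5% CCAAT, 21.2% TGACG, 14.2% TATAAA and 7.33% the AP-1 motif, which none of the 4 windows held. These are matches of letters and were not tested as binding sites.

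The arrays were on a common scale, with a 2% trimmed mean of 500.2 to 500.7, and medians of 136.0 to 183.3. Kidney markers were bright, the 6 proximal tubule markers summing to a median of 65288 in mature and 48708 in immature kidney. Control probe sets split the arrays into 3 sets, called batches here although the labels name none: batch 1 held 4 mature and 6 immature arrays, batch 2 held 7 immature, 6 young and 6 arrays without a stage word, and batch 3 held 8 young, 10 mature and 8 without one. All arrays of batch 3 lay below 600 on X56596_at. The GAPDH or actin 3′/5′ signal ratio was above 2.5 on mature arrays 1, 5, 9 and 12, and the GAPDH ratio was 7.18 on mature array 1 and 3.47 on mature array 9.

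Of the 11 probe sets, 9 passed a filter on low mean values and were tested among 6555. The 2 that did not, Ptger3 D16443_at and Alox15 L06040_s_at, are given as levels. Pla2g2a X51529_at passed narrowly, and its immature mean of 5.29 on the log2 scale lay under the limit of 5.91, so it was tested only because the later groups were higher. Its changes are therefore given as a description with no p-value. Ptgs2 S67722_s_at had a mean of 5.914 in mature kidney, just above this limit. In the group without a stage word its mean of 5.86 lay under the limit. Its contrasts with that group are therefore also a description with no p-value. The same holds for the mature arrays below 600 on X56596_at, whose mean also lay under the limit. Between mature and immature kidney 6 of the 9 passed the test (limma, adjusted p under 0.05), 2 higher and 4 lower, where 24.4% of all 6555 passed, 10.3% higher and 14.1% lower. The 6 include Pla2g2a, and without it 1 was higher. The counts below still include Pla2g2a. They also include Ptgs2 S67722_s_at in contrasts and tests with the group without a stage word or with the mature arrays below 600 alone. As descriptions, these add no support. The median log2 change was -0.14 over the 9 and 0.04 over all tested. Log2 changes below are on the scale of log2(intensity + 15.82), which understates changes of dim probe sets.

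**Figure D1:**
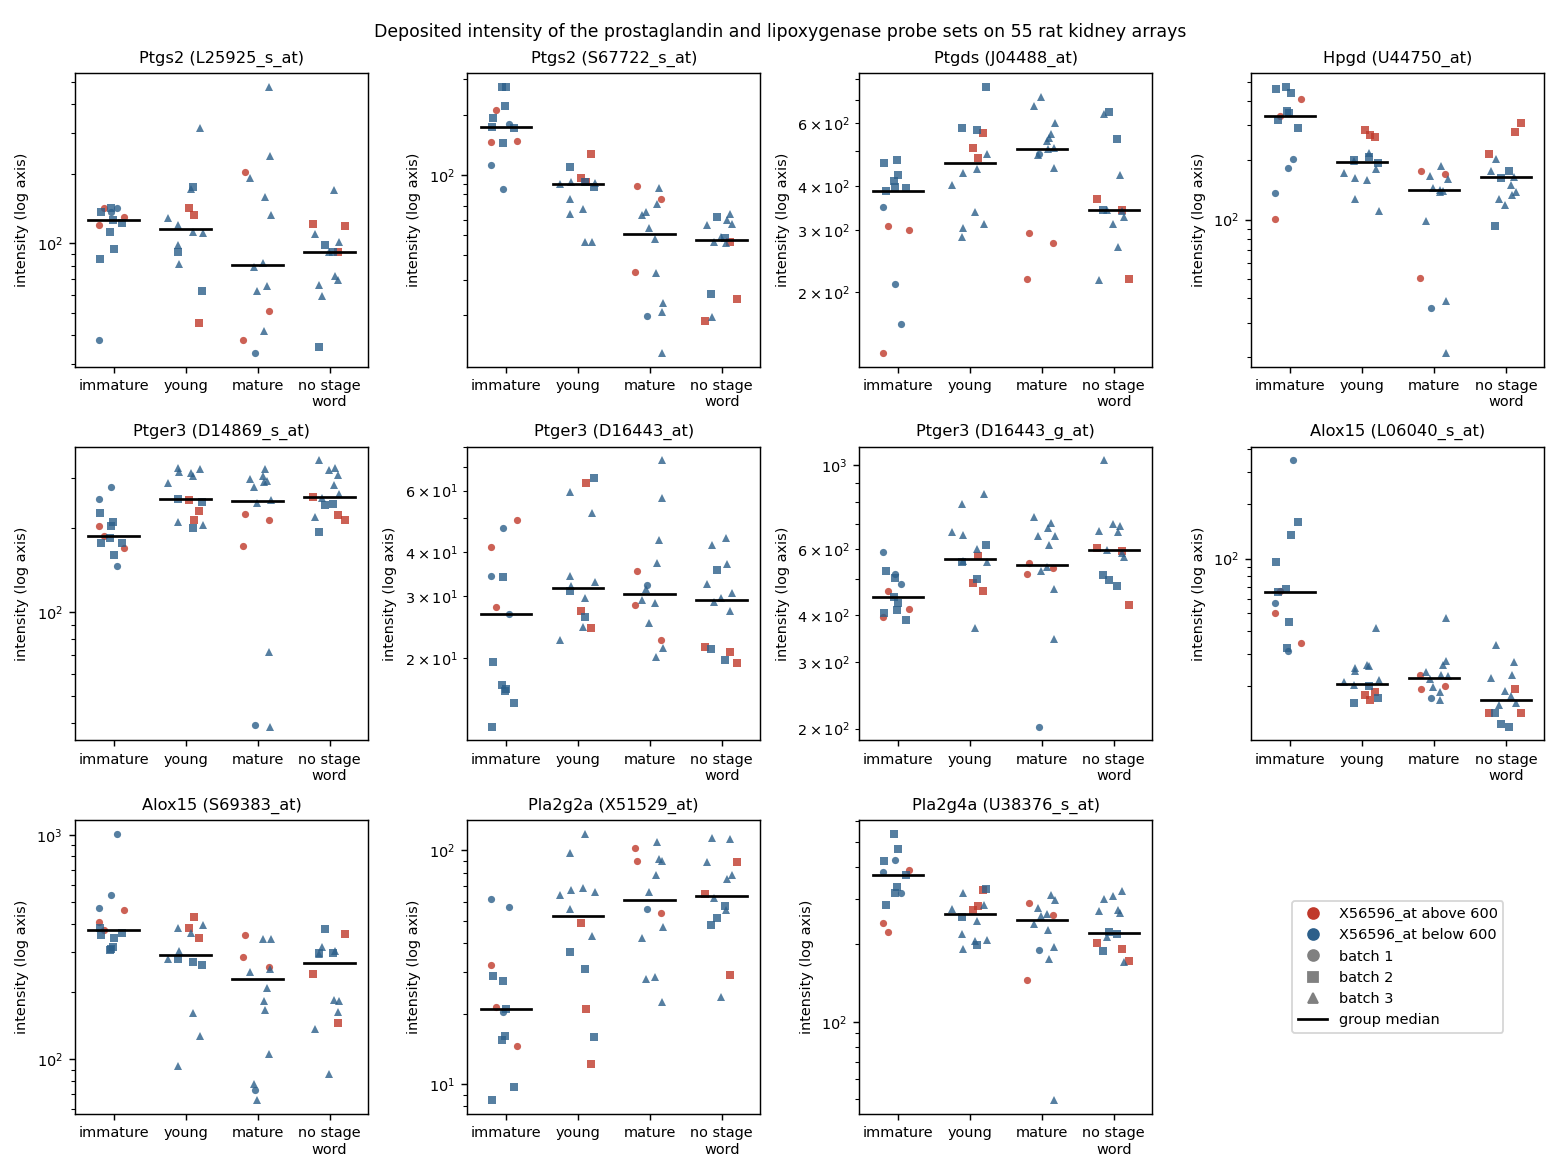
Deposited intensity of the 11 probe sets on each of the 55 arrays (log axis), by stage group, with the group median as a line, red for arrays above and blue for arrays below 600 on X56596_at, and the marker shape for the batch. Ptgs2 S67722_s_at stepped down over the stage words, with medians of 173.3, 90.6 and 51.1, while Ptgs2 L25925_s_at had broad, overlapping groups.

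Of the phospholipases that open the pathway, the cytosolic one was lower in mature kidney. Pla2g4a U38376_s_at ranged from 49.5 to 311.1 with a median of 248.0 in mature kidney, against 222.9 to 537.6 with a median of 371.7 in immature kidney. The ranges overlapped, and the lowest mature value was on array 1, the array of the highest GAPDH ratio. The log2 change was -0.69 ± 0.15 (SE, n = 14 and 13), a 1.62-fold lower level with a limma adjusted p of 0.0006, and -0.53 without the 4 arrays of high ratio. In young kidney Pla2g4a ranged from 191.2 to 328.0, median 262.7, and was lower than in immature kidney by a log2 change of -0.45 ± 0.15 (adjusted p = 0.031). This call was lost when any 1 of 4 arrays was left out, immature 10, 11 or 12 or young 11, with adjusted p up to 0.062, and with batch as a block (adjusted p = 0.054).

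Pla2g2a X51529_at, the secreted enzyme, was dim, and the immature arrays held its lower values. It ranged from 22.5 to 108.1 with a median of 61.3 in mature kidney, against 8.5 to 61.9 with a median of 20.9 in immature kidney, and the log2 difference was 0.95 ± 0.21. Young kidney had 12.2 to 117.7, median 52.5, a difference of 0.69 ± 0.21 from immature kidney, and the arrays without a stage word had 23.6 to 112.4, median 63.6, a difference of 1.02 ± 0.21. No difference among the 3 later groups passed over all arrays. Stage groups held 34.6% of the variance of the log2 values and batch added 21.0%. With batch as a block the difference between mature and immature kidney was 0.65, and 0.64 when the 4 arrays of high ratio were also left out.

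Ptgs2, the cyclooxygenase step, had the largest change of the 9, but on only 1 of its probe sets. S67722_s_at ranged from 12.9 to 88.7 with a median of 51.1 in mature kidney, against 85.2 to 276.5 with a median of 173.3 in immature kidney, so the groups overlapped only between 85.2 and 88.7. The log2 change was -1.64 ± 0.18, a 3.12-fold lower level (adjusted p = 2.8e-10). Young kidney lay between, from 46.3 to 128.1 with a median of 90.6, lower than immature by a log2 change of -0.95 ± 0.18 (adjusted p = 0.00014). Mature was lower than young kidney by -0.69 ± 0.18 (adjusted p = 0.025), a call lost with batch as a block (-0.60, adjusted p = 0.099) and without any 1 of 5 arrays (mature 1, 5 or 9, young 4 or 14), with adjusted p of 0.051 to 0.066. Arrays without a stage word ranged from 18.6 to 64.0, median 47.5, and none reached the lowest immature value. Of all tested probe sets 1.22% separated these groups without overlap. Their log2 difference from immature kidney was -1.70 ± 0.18, a description as said above. Stage groups accounted for 68.9% of the variance of S67722_s_at.

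The other Ptgs2 probe set, L25925_s_at, showed no such step. It had 33.4 to 477.0 with a median of 80.7 in mature kidney, against 38.1 to 142.2 with a median of 126.1 in immature kidney, with a log2 change of -0.14 ± 0.25 (adjusted p = 0.70, 95% interval -0.64 to 0.35). Mature arrays 1 and 9, of high GAPDH ratio, had 477.0 and 239.7 on L25925_s_at but 20.7 and 12.9 on S67722_s_at. These were the 2 highest mature values on L25925_s_at, so its mean change leans on them. Leaving out 1 array at a time gave changes from -0.30 to -0.05, and none passed in limma. The 2 probe sets had a Pearson correlation of 0.06 over 55 arrays, and stage groups accounted for 4.54% of the variance of L25925_s_at. Which part of the transcript each covers was not analysed here, so the Ptgs2 result rests on S67722_s_at. That is the dimmer of the 2, with a mean over all arrays of 6.46 on the log2 scale against 6.91 for L25925_s_at.

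**Figure D2:**
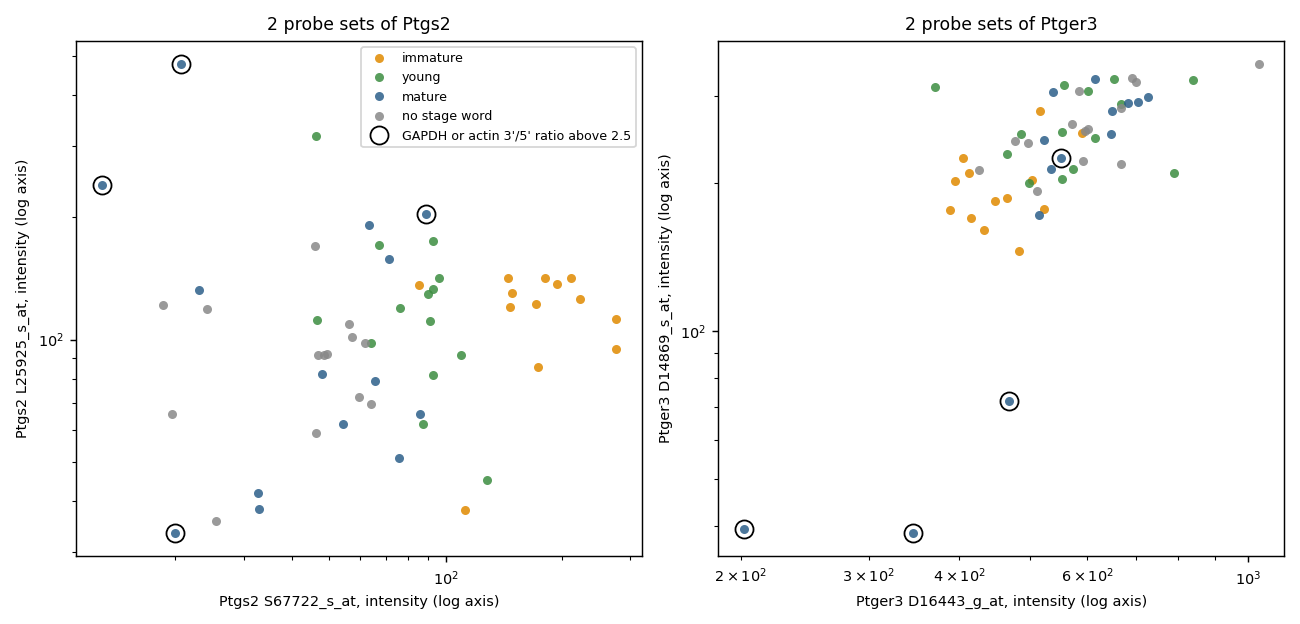
Intensities of both Ptgs2 probe sets (left) and of the 2 brighter Ptger3 probe sets (right) on 55 arrays, both axes logarithmic, coloured by stage group, with circles around mature arrays 1, 5, 9 and 12, whose GAPDH or actin 3′/5′ ratio was above 2.5. The Ptgs2 probe sets do not follow each other (r = 0.06), the Ptger3 probe sets do (r = 0.71), and 3 of the circled arrays are the lowest on Ptger3 D14869_s_at, at 71.9, 39.5 and 38.8.

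Of 7 markers of smooth muscle, mesangium and interstitium, 3 (Col1a1, Col3a1 and Dcn) were lower and 1 (Pdgfrb) higher in mature kidney. Acta2, Myh11 and Pdgfra did not pass the test. The summed level of the list was 2306.8 to 11837 in mature and 7156.1 to 13492 in immature kidney. The macula densa marker Nos1 had a median of 101.8 in mature and 94.5 in immature kidney and did not pass the test. The part of these cells in the Ptgs2 values was not tested. In whole kidney RNA, fewer cells of a type and less RNA per cell cannot be told apart.

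Ptgds J04488_at, the prostaglandin D synthase, was higher in mature kidney, at 217.5 to 714.5 with a median of 509.4, than in immature kidney, at 134.3 to 473.4 with a median of 385.7. The ranges overlapped widely and the log2 change was 0.53 ± 0.18 (adjusted p = 0.027). Without immature array 1 or immature array 4 the call was lost, with adjusted p of 0.064 and 0.053. Batch added 39.1% to the variance of Ptgds beside 17.8% for the stage groups. With batch as a block the change was 0.58 (adjusted p = 0.012), and mature kidney then also exceeded the group without a stage word, by 0.68 (adjusted p = 0.0044), a difference of 0.36 that did not pass without the block (adjusted p = 0.37). Young kidney had 286.6 to 763.0, median 462.5, and the group without a stage word 217.1 to 648.0, median 340.8.

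The receptor gene Ptger3 showed no change between mature and immature kidney that passed in the main fit of all arrays, which used no weights or blocks. D16443_g_at had 202.2 to 727.5 with a median of 545.0 in mature kidney, against 388.6 to 589.6 with a median of 447.5 in immature kidney (log2 change 0.20 ± 0.13, adjusted p = 0.25). D14869_s_at had 38.8 to 324.4 with a median of 248.0 in mature kidney, against 145.5 to 279.3 with a median of 186.6 in immature kidney (log2 change -0.06 ± 0.20, adjusted p = 0.84). Its mean was lower but its median higher in mature kidney: mature arrays 1, 5 and 9 lay at 71.9, 39.5 and 38.8 and the other mature arrays at 172.0 or above. Without the 4 arrays of high 3′/5′ ratio D14869_s_at was higher in mature kidney by 0.41 (adjusted p = 0.0032) and D16443_g_at by 0.40 (adjusted p = 0.0039). With array weights the D14869_s_at change was 0.44 (adjusted p = 0.00033), and with batch as a block it was -0.32 (adjusted p = 0.38). The part of RNA quality in this was not tested. The group without a stage word had 426.2 to 1033.5, median 594.7, on D16443_g_at, higher than immature kidney by 0.39 ± 0.13 (adjusted p = 0.020). With batch as a block that call was lost (adjusted p = 0.35). For the segments known for this receptor, 5 of 7 distal nephron and collecting duct markers were lower and 1 higher in mature kidney. Their summed level was 8771.4 to 13349 in mature and 13369 to 19299 in immature kidney. Of 4 thick ascending limb markers 1, Slc12a1, was lower (-0.82). That list summed to 9175.6 to 26134, median 19936, in mature and 8757.2 to 16890, median 14934.5, in immature kidney. The part of these segments in the Ptger3 values was not tested. The third probe set, D16443_at, was dim throughout, with medians of 26.7 in immature, 31.6 in young, 30.4 in mature kidney and 29.3 without a stage word.

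Hpgd U44750_at, which removes active prostaglandins, fell. It ranged from 21.0 to 187.1 with a median of 140.5 in mature kidney, against 100.8 to 472.4 with a median of 333.4 in immature kidney, a log2 change of -1.34 ± 0.23 or 2.54-fold lower (adjusted p = 9.9e-06). Mature arrays 9, 5, 1 and 8 were the lowest, at 21.0, 35.8, 38.5 and 50.3, and without the 4 arrays of high ratio the change was -1.01. Young kidney had 111.0 to 283.8, median 196.8, and the change of -0.55 ± 0.23 from immature kidney did not pass (adjusted p = 0.077). Mature was lower than young kidney by -0.79 ± 0.22 (adjusted p = 0.045), a call that leaving out any 1 of 13 arrays ended, with adjusted p up to 0.12, as did batch as a block (-0.51, adjusted p = 0.22) and leaving out the 4 arrays of high ratio (-0.46, adjusted p = 0.39). Arrays without a stage word had 92.4 to 309.9, median 163.7, lower than immature by -0.72 ± 0.23 (adjusted p = 0.013).

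Alox15 S69383_at was lower in mature than in immature kidney, and the dimmer L06040_s_at had its highest values on immature arrays. S69383_at had 65.7 to 358.6 with a median of 227.1 in mature kidney, against 307.2 to 1011.1 with a median of 375.9 in immature kidney, a log2 change of -1.08 ± 0.23 or 2.12-fold lower (adjusted p = 0.00042). With batch as a block and without the 4 arrays of high ratio the change was -0.59 and did not pass (adjusted p = 0.11). Young kidney had 93.4 to 432.0, median 291.9 (-0.58 ± 0.23 against immature, adjusted p = 0.072), and the group without a stage word 86.0 to 379.8, median 267.2 (-0.83 ± 0.23, adjusted p = 0.0056), a call lost with batch as a block (-0.52, adjusted p = 0.16). L06040_s_at ranged from 16.7 to 47.1 with a median of 22.2 in mature kidney, against 31.0 to 348.3 with a median of 65.3 in immature kidney, and from 16.1 to 41.8 in young kidney. Immature array 4 was the highest of all 55 on both, with 1011.1 on S69383_at and 348.3 on L06040_s_at. Fitted without the filter, L06040_s_at had a log2 change of -1.19 ± 0.17 between mature and immature kidney, and it is given only as a description since it failed the filter. Mast cell and granulocyte markers were mostly dim: 2 of 7 on the array were bright enough to test, neither passed, and the list summed to 312.3 to 610.9 in mature and 268.7 to 539.9 in immature kidney. Of the macrophage and leucocyte markers 4 of 7 on the array were tested and 1, Cd4, was higher in mature kidney (0.56), with a summed level of 5219.3 to 19560, median 8618, in mature and 5288.0 to 9652.0, median 6542, in immature kidney. The part of leucocytes was not tested.

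Over the other stage contrasts the counts were as follows. Against immature kidney 3 of the 9 passed in young kidney, where 18.7% of all tested did. The 1 that was higher, as were 9.47% of all, was Pla2g2a, a description as above. The 2 lower, as were 9.21%, were Ptgs2 S67722_s_at and Pla2g4a. Pla2g4a was no longer called with batch as a block, and with batch and side as blocks neither it nor Pla2g2a was, while Hpgd was (-0.94, adjusted p = 0.010). In the group without a stage word 6 passed, where 27.0% of all did: 2 were higher, Pla2g2a and Ptger3 D16443_g_at, as were 12.7% of all, and 4 were lower, as were 14.4%. Of these, Pla2g2a and Ptgs2 S67722_s_at are descriptions. In the fit with batch as a block 4 passed, 1 higher and 3 lower, without Ptger3 D16443_g_at and Alox15 S69383_at. Between mature and young kidney 2 were lower, Ptgs2 S67722_s_at and Hpgd, where 1.80% of all passed. Between the group without a stage word and young kidney 1 was counted, where 0.229% of all passed. It was Ptgs2 S67722_s_at (-0.75 ± 0.18), a description as above. That count was lost without any 1 of 14 arrays, young 1, 2, 3, 4, 8, 11, 13 or 14 or arrays 1, 2, 4, 8, 9 or 14 of the group without a stage word, and was kept with batch as a block. Between mature kidney and the group without a stage word none passed in limma, where 0.412% of all tested passed, and 3 had an unadjusted p under 0.05, as had 867 of all 6555. A test over the 4 groups passed for 5 of the 9, where 28.5% of all did. Pla2g2a and Ptgs2 S67722_s_at were among the 5, both as descriptions. The contrasts share samples and are not independent of each other.

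The 6 calls between mature and immature kidney, which include Pla2g2a as a description, also passed with batch as a block, where 12.6% of all tested passed. Inside batch 1, with 4 mature and 6 immature arrays, none of the 9 passed in limma, where 0.717% of all did, 5 had an unadjusted p under 0.05, as had 941 of all 6555, and the 6 had the same direction as over all arrays: -1.30 for Ptgs2 S67722_s_at, -1.07 for Hpgd, -1.21 for Alox15 S69383_at, -0.55 for Pla2g4a, 0.91 for Pla2g2a and 0.38 for Ptgds. Mature arrays 5 and 12 of this batch have a high 3′/5′ ratio. On Ptgs2 S67722_s_at, Hpgd and Alox15 S69383_at, mature 5 was the lowest mature array of the batch (19.9, 35.8 and 73.1). Mature 12 was the highest (88.7, 176.8 and 358.6). No other batch holds both mature and immature arrays. Inside batch 2, where 29.3% of all tested passed between young and immature kidney, Ptgs2 S67722_s_at (-0.92), Hpgd (-0.66) and Pla2g4a (-0.46) were lower in young kidney and Ptger3 D14869_s_at higher (0.27). In the same batch the group without a stage word had 4 calls against young kidney, where 27.1% of all passed. Ptgs2 S67722_s_at (-1.19), Ptgds (-0.55) and Pla2g4a (-0.43) were lower and Pla2g2a (0.75) higher. Here Ptgs2 S67722_s_at and Pla2g2a are descriptions as above. Inside batch 3, which has no immature array, none of the 9 passed in limma. Between mature and young kidney 0.442% of all passed there, and 3 of the 9 had an unadjusted p under 0.05, as had 461 of all 6555. Between mature kidney and the group without a stage word 0.214% passed, and 1 of the 9 had an unadjusted p under 0.05, as had 766 of all. Between that group and young kidney 0.0% passed, and 0 of the 9 had an unadjusted p under 0.05, as had 187 of all.

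**Figure D3:**
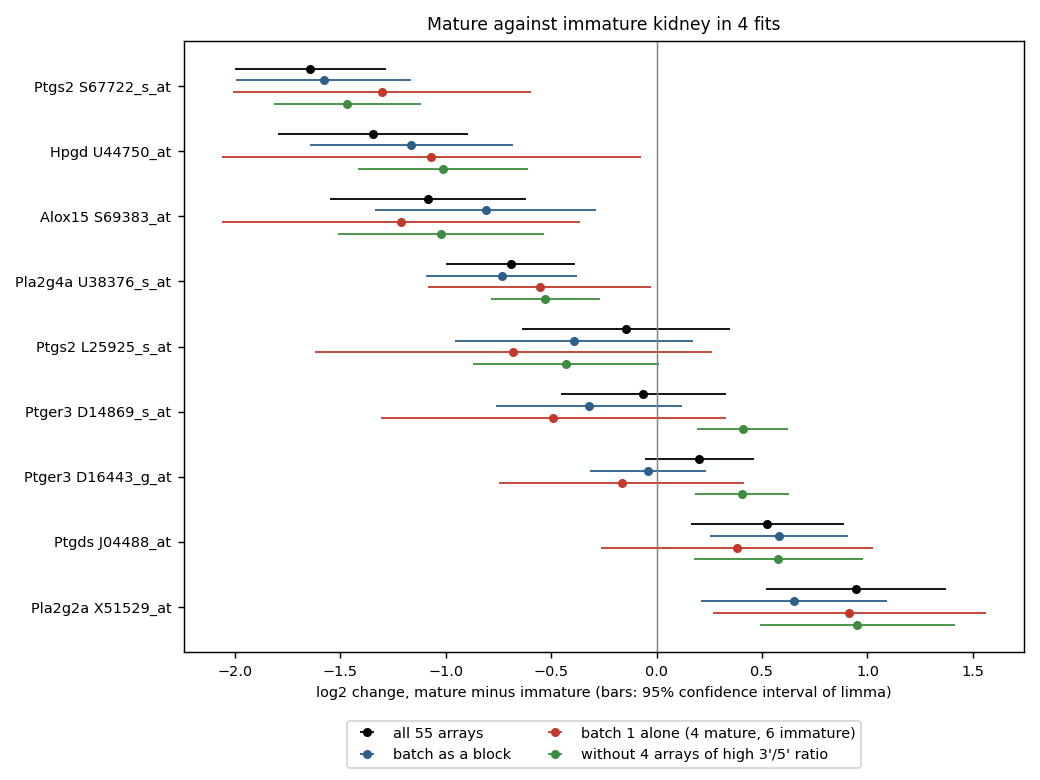
Log2 change of the 9 tested probe sets, mature minus immature, with 95% confidence intervals, over all 55 arrays, with batch as a block, in batch 1 alone and without the 4 arrays of high 3′/5′ ratio. The 6 probe sets that passed, with Pla2g2a as a description, keep their side of 0 in all 4 fits. Ptger3 D14869_s_at moves across it, with -0.06 over all arrays and 0.41 without the 4 arrays.

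Arrays above and below 600 on X56596_at could be set side by side inside a stage group and batch in 3 places, each with 3 arrays a side. As the sides come from the data, their levels are a description with no test. In young kidney of batch 2, Hpgd had 261.2, 269.1 and 283.8 above 600 and 194.3 to 206.6 on the 3 arrays below, and in the group without a stage word of that batch 215.9, 276.8 and 309.9 above and 92.4, 163.2 and 176.9 below. In both places Hpgd was higher on the arrays above 600 with no overlap. In immature kidney of batch 1 it had 100.8, 333.4 and 408.7 above and 136.8, 183.5 and 203.5 below, and the sides overlapped.

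Alox15 S69383_at differed between places. In young kidney of batch 2 it had 345.5, 383.4 and 432.0 above 600 and 263.4, 270.5 and 280.8 below. In immature kidney of batch 1 it had 375.9, 410.7 and 461.9 above and 469.8, 541.7 and 1011.1 below. In the group without a stage word of batch 2 its sides overlapped, with 145.5, 240.8 and 360.3 above and 297.6, 298.3 and 379.8 below. Ptgds had 477.7, 511.1 and 564.7 above and 575.9, 583.6 and 763.0 below in young kidney of batch 2, and Ptger3 D16443_g_at had 394.8, 415.6 and 464.8 above and 483.6, 516.2 and 589.6 below in immature kidney of batch 1. The sides did not overlap for 2 of 9 probe sets in immature kidney, 3 in young kidney and 1 in the group without a stage word, against 11.7%, 17.1% and 19.7% of all tested. With quantile normalization the count in immature kidney was 1, since Ptger3 D16443_g_at then overlapped. Ptgs2 S67722_s_at overlapped between the sides in all 3 places, with 92.6, 96.3 and 128.1 above and 87.1, 92.8 and 109.6 below in young kidney.

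**Figure D4:**
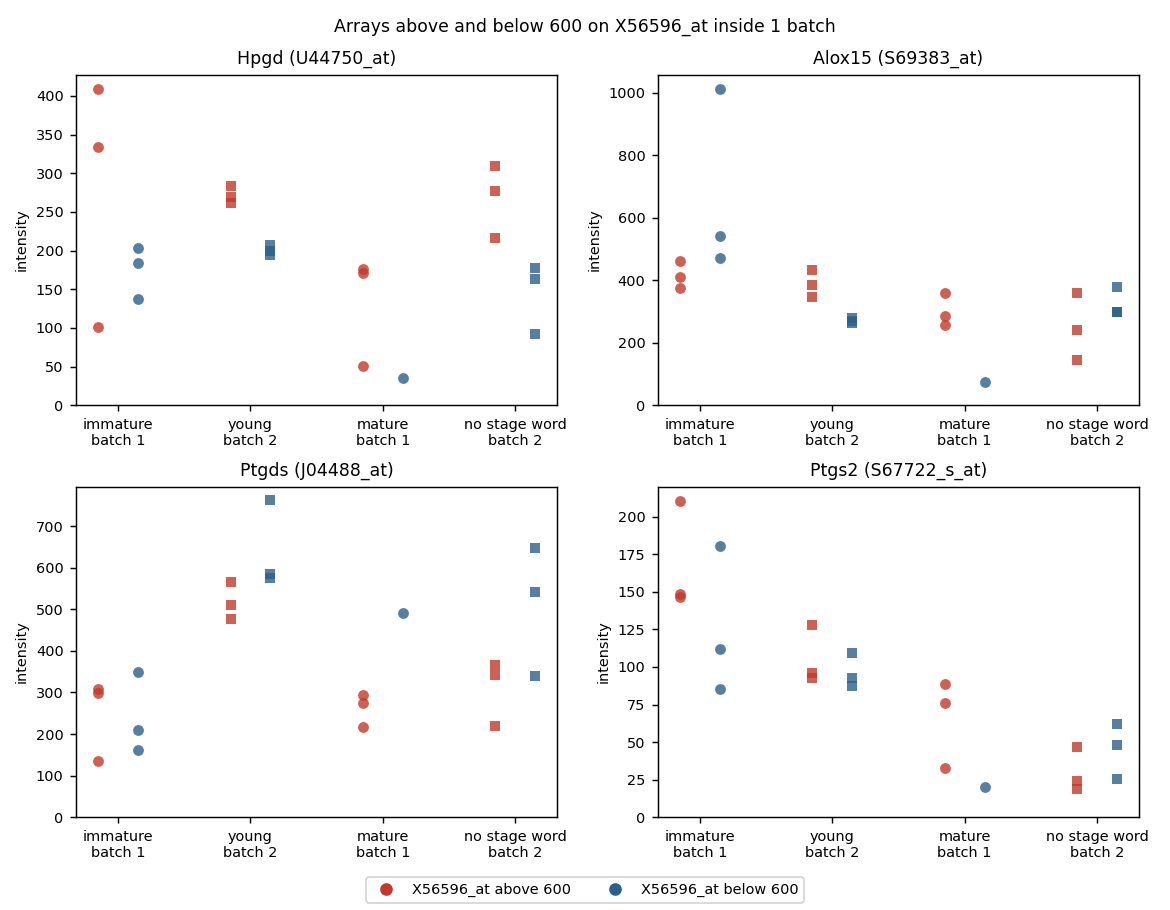
Intensity of Hpgd, Alox15 S69383_at, Ptgds and Ptgs2 S67722_s_at on arrays above (red, left) and below (blue, right) 600 on X56596_at, by stage group inside 1 batch, 1 point an array, with the axis from 0. Hpgd lies higher above 600 in young kidney and in the group without a stage word, and the mature group of batch 1 has 1 array below 600, mature 5, whose 3′/5′ ratio is high.

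The stage contrasts were also fitted on each side. Among arrays above 600, Ptgs2 S67722_s_at was the 1 probe set of 9 lower in mature than in immature kidney (-1.23 ± 0.30, adjusted p = 0.037, n = 3 a group in a limma fit), where 5.71% of all tested passed. That call was lost with array weights (adjusted p = 0.20), with an offset of 0.02 of the median (adjusted p = 0.055) and within batch 1 (adjusted p = 0.17), which holds all 6 of these arrays. Ptgs2 S67722_s_at was also the 1 counted in the group without a stage word against immature kidney (-2.05 ± 0.30), where 12.7% of all passed. Against young kidney it was the 1 counted too (-1.45 ± 0.30), where 1.21% passed. Both are descriptions as above. The count against young kidney was lost with scaling to the 75th percentile, quantile normalization, no filter, an offset of 0.02 or without the arrays of high ratio. Ptgds was the 1 called between young and immature kidney, and was higher (1.10 ± 0.29, adjusted p = 0.027), where 15.6% of all passed. Above 600 the immature arrays all lay in batch 1, and the young arrays and those without a stage word in batch 2, so stage and batch cannot be told apart in the contrasts of these groups with immature kidney. Among arrays below 600 the same 6 probe sets as over all arrays were counted between mature and immature kidney, where 28.3% of all passed. Of these, Pla2g2a and Ptgs2 S67722_s_at are descriptions, the latter because its mean on these mature arrays lay under the filter limit. Ptgs2 S67722_s_at had -1.75 ± 0.20 and Hpgd -1.46 ± 0.24. Below 600, 10 of the 11 mature arrays lay in batch 3, which has no immature array. The difference between the sides in the mature against immature change passed for none of the 9, where 1.82% of all tested did, and none had an unadjusted p under 0.05. Its intervals were wide, from -0.32 to 1.36 for Ptgs2 S67722_s_at and from -0.54 to 1.55 for Hpgd, so with 3 arrays a group above 600 differences within these bounds were not resolved.

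Other genes of the pathway were taken from a list of 51, of which 31 were on the array and 25 were tested. Each of these genes, and each marker above, stands for its probe set of highest mean. Anxa1, Dpep1, Ptgfrn and Ptgfr have further probe sets, which were not used for these calls. Between mature and immature kidney 3 were higher and 5 lower, against 10.3% and 14.1% of all tested. The median log2 change was 0.07 over the list and 0.04 over all tested. The higher ones were Ggt1 (0.77), whose enzyme removes the glutamyl residue from leukotriene C, and the receptors of prostacyclin, Ptgir (0.79), and of prostaglandin F, Ptgfr (0.43). The lower ones were Anxa1 (-1.07), known as an inhibitor of phospholipase A, Ptgr1 (-0.96), a reductase that inactivates prostaglandins and leukotriene B, Dpep1 (-0.62), a peptidase acting on leukotriene D, Ptgfrn (-0.54), a partner of the prostaglandin F receptor, and Mgst1 (-0.36). With batch as a block 1 stayed higher, Ggt1, and 3 lower, Anxa1, Ptgr1 and Ptgfrn, where 12.6% of all tested passed. The constitutive cyclooxygenase Ptgs1 had medians of 484.7 in mature and 391.8 in immature kidney and did not pass (0.23, adjusted p = 0.29). It is named as the counterpart of Ptgs2, after its values were seen. In young kidney 1 of the 25 was higher and 6 lower than in immature kidney, against 9.47% and 9.21% of all tested. In the group without a stage word 4 were higher and 5 lower, against 12.7% and 14.4%. None passed between the later groups, where 0.229% to 1.80% of all did.

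Across the 55 arrays Ptgs2 S67722_s_at and Hpgd had a Pearson correlation of 0.67 (Spearman 0.56). Pla2g4a had 0.60 (Spearman 0.56) with Ptgs2 S67722_s_at and 0.61 (Spearman 0.49) with Hpgd, and Pla2g2a had -0.54 (Spearman -0.49) with Ptgs2 S67722_s_at. After the mean of each stage group and batch was taken off, the Pearson values were 0.46, 0.25, 0.47 and 0.02. The arrays share scale, batch and RNA quality, and no test was made. The genes most like Ptgs2 S67722_s_at were Col3a1 (0.84), Col5a2 (0.83) and Tmpo (0.79), those most like Hpgd were Arl1 (0.84), Anxa1 (0.84) and Efemp1 (0.82), and those most like Pla2g4a were Map2k1 (0.79), Mcm6 (0.74) and Psma5 (0.74). The Anxa1 probe set like Hpgd is not the one given for the pathway list. Ptger3 D14869_s_at was most like Cyb5r3 (0.91), Anpep (0.87) and Pebp1 (0.84), and D16443_g_at like Pou6f1 (0.77), Fasn (0.73) and Slc14a2 (0.73). Alox15 S69383_at was most like Scd2 (0.63), Col1a1 (0.59) and Fmc1 (0.58), Pla2g2a like Gng7 (0.69), Nfix (0.66) and Mettl7b (0.65), and Ptgds like Mpc1 (0.67), Pik3r3 (0.62) and Ndufa4 (0.61). Ptgs2 L25925_s_at had no gene above 0.52, with Or2t26 the nearest. Within stage group and batch these values ranged from 0.91 (Cyb5r3 with Ptger3 D14869_s_at) to 0.22 (Col1a1 with Alox15 and Mettl7b with Pla2g2a). Arl1 had 0.81 with Hpgd and Col3a1 0.56 with Ptgs2 S67722_s_at, while Col5a2 had 0.40 with Ptgs2 S67722_s_at, Gng7 0.28 with Pla2g2a and Mpc1 0.27 with Ptgds.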

How the data were processed

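The values used are the deposited intensities of 8799 probe sets on 55 arrays, linear as judged from their range; the method the authors used to summarise and scale them is not given in the sources used here, and no pair of arrays was identical. An offset of 15.82 (0.1 of the median) was added and log2 taken. The 59 control probe sets were left out, and probe sets under the 25th percentile of mean log2 removed, leaving 6555. Symbols came from the platform annotation, updated through RefSeq GRCr8. The arrays were fitted together with lmFit and eBayes of limma 3.58.1 in R 4.3.3 (4 groups, 6 contrasts, 2-sided, Benjamini-Hochberg over 6555, threshold 0.05), checked on simulated data. Batches are 3 clusters (Ward) of 42 control probe sets. Alternatives changed scaling, offset, filter, weights, prior, blocks and arrays; those within a batch or without the arrays of a GAPDH or actin ratio above 2.5 were chosen after seeing the data. All member probe sets are named, with the 8 pathway genes that passed between mature and immature kidney and the 3 genes most correlated with each tested probe set. The members, gene lists and tests were chosen with earlier results of these data known. The number of arrays limits the precision. Figures were drawn with matplotlib 3.10.9.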

Additional observations from a re-analysis of the deposited data

How the results depend on the processing

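Of 54 member results (9 probe sets in 6 contrasts), 18 passed the threshold, those given above only as descriptions among them. Alternatives to these 18, leaving out single arrays aside, kept the call 221 times and lost it 42 times, with no reversal. For the 36 that did not pass, 30 alternatives made a call in the same direction and 2 in the opposite one. Ptger3 D14869_s_at, mature against immature, turned to 0.44 (adjusted p = 0.00033) with array weights and to 0.41 without the arrays of a GAPDH or actin ratio above 2.5, which hold its lowest values. The counts of probe sets that passed moved as follows. Over the 4 groups (5) it was 8 with array weights, where the share of all probe sets that passed was 60.8% against 28.5%, and 8 without the arrays of a GAPDH or actin ratio above 2.5 (33.7%). Mature against immature (6) gave 0 within batch 1, which has fewer arrays. Young against immature (3, 18.7% of all) gave 6 with array weights (44.3%), 1 with the filter at the 50th percentile, 5 with an offset of 0.5 of the median, 5 without the GAPDH ratios above 3 and 7 without the ratios above 2.5. Mature against young (2) gave 1 with array weights, scaling to the 75th percentile, quantile normalization, the filter at the 50th percentile, no filter or an offset of 0.5 of the median, and 0 with batch as a block, with batch and side as blocks, within batch 3 and without the arrays of high ratio, with or without the block. Between the arrays without a stage word and young kidney (1) it was 0 with scaling to the 75th percentile, quantile normalization, the filter at the 50th percentile, either other offset (0.02 or 0.5) or within batch 3, and 4 within batch 2. Mature against the group without a stage word (0) gave 1 with array weights or with batch as a block, alone, with the side or without the arrays of high ratio. Over the contrasts above 600 (4) it was 7 with array weights and 2 with the filter at the 50th percentile or an offset of 0.02. Other causes were not tested. Leaving out each array in turn gave 5 to 7 over the 4 groups, 5 to 7 for mature and 2 to 5 for young against immature, 0 to 2 for mature against young, 6 to 6 and 0 to 1 for the arrays without a stage word against immature and young, 0 to 0 for mature against that group, 1 to 4 above 600, 15 to 17 below it and 0 to 0 for the difference between the sides. No paired analysis was possible because the labels give no replicate numbers shared between groups. Dim probe sets such as Pla2g2a X51529_at and Alox15 L06040_s_at lie nearest to the offset, so their fold changes depend most on it; signal over background was not analysed here.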
